A study of Mus musculus with 2 samples.

Results

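The 10 genes described here encode the GATA factors Gata1 and Gata2 and the factors known to act with or beside them in stem, erythroid and megakaryocyte cells: Zfpm1, Klf1, Gfi1b, Nfe2, Tal1, Lmo2, Fli1 and Runx1. They were chosen by symbol from the 27998 genes of the feature lists of both libraries, and all 10 were found. Their levels came from single-cell RNA sequencing of bone marrow cells of mice aged 3 months, sorted as Lin- Sca-1+ c-Kit+ (LSK), a gate rich in haematopoietic stem and progenitor cells (HSPCs). There was 1 library of Trmt6 WT cells and 1 library of Trmt6 cKO cells. The Trmt6 protein is the non-catalytic partner in the tRNA m1A methyltransferase. By the labels, the WT mice were Trmt6fl/fl and the cKO mice were Trmt6fl/fl, MX1-cre. The study's description of the single-cell experiment gives Mx1-Cre and pIpC to both genotypes and unfloxed alleles to the WT mice, whereas its methods name Mx1-Cre mice with 1 floxed allele beside the cKO mice. The sources thus differ on what the control library shared with the cKO library. Mx1-Cre is induced by interferon and is not restricted to blood cells. The number of mice behind each library and any pooling are not given in the sources used here. Genotype and library cannot be told apart, differences below have no replicate check, and every interval given is a 95% interval of the counting error alone.

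GATA factors are zinc finger proteins that bind short DNA motifs built around the letters GATA. In the textbook view, Gata2 is used in stem and early progenitor cells and in mast cells, and is replaced by Gata1 at many sites as erythroid and megakaryocyte cells mature. Gata1 works with its cofactor Zfpm1 (FOG1), and Tal1, Lmo2 and GATA factors can sit together in 1 complex at enhancers. Klf1 activates red cell genes, and Gfi1b is a transcriptional repressor used in both the erythroid and the megakaryocyte lineage. Nfe2 is a bZIP factor of platelet formation, Fli1 is an ETS factor of megakaryocytes, and Runx1 is a Runt factor of stem cells and megakaryocytes.

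GATA1 is known to act on many genes of this group, so the bases before their starts were read for GATA motifs. The RefSeq promoter table (GRCm38.p6) matched 7 of the 10 members with 10 start sites, and Nfe2, Lmo2 and Fli1 had no entry. The 250 bases before each start were searched on both strands for AGATAA and for its variants with T as the first letter, G as the last, or both. All 4 share the letters GATA, overlapping matches were counted, and a match on the other strand reads TATC at its core. A match stood in 3 of the 10 member windows, and 26.5% of all 32851 windows of that length in the table held at least 1. The sequences of 4 members are shown: those of the GATA factors themselves, and those of Klf1 and Gfi1b, whose windows held a match. Matches are in capitals, and each sequence is written 5′ to 3′ on the strand of its gene.
Gata1, chrX:7967911-7968160, minus strand: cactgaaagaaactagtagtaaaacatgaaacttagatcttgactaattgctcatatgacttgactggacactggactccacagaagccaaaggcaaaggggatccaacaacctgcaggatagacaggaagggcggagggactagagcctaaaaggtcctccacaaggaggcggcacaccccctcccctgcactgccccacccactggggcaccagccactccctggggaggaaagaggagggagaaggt
Gata2, chr6:88193641-88193890, plus strand: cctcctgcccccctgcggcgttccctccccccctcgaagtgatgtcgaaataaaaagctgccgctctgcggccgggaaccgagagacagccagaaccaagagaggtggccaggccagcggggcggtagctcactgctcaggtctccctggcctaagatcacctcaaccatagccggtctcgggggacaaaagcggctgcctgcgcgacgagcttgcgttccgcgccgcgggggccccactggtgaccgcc
Klf1, chr8:84901732-84901927, plus strand: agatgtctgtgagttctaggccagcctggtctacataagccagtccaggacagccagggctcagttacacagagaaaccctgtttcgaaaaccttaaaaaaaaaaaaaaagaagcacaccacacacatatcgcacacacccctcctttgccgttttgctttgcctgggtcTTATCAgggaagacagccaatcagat
Gfi1b, chr2:28621983-28622232, minus strand: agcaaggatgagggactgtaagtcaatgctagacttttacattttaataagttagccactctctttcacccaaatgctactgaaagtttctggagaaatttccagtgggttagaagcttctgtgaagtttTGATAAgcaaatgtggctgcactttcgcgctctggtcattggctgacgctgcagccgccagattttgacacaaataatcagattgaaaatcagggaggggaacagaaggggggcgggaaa
The Klf1 match (TTATCA) began 80 bases before the RefSeq start and the Gfi1b match (TGATAA) began 120 bases before it, while none of the 4 motifs stood in the windows of Gata1 and Gata2. The only other match, TTATCT, began 205 bases before the first start of Tal1. The Klf1 sequence stops 54 bases short of the RefSeq start, where an exon of GENCODE M21 begins, and the Gata1 window lies inside the longer GENCODE gene, outside its exons. A match is a description of the letters only, and binding was not measured.

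The members lie on 8 chromosomes of GRCm38. In GENCODE M21, Gata1 (ENSMUSG00000031162) spans chrX:7959260-7978071 on the minus strand and Gata2 (ENSMUSG00000015053) spans chr6:88193891-88207032 on the plus strand. Klf1 (ENSMUSG00000054191) spans chr8:84901928-84905291 and Zfpm1 (ENSMUSG00000049577) chr8:122282141-122337251, both on the plus strand. Gfi1b (ENSMUSG00000026815) spans chr2:28609450-28621982 on the minus strand and Runx1 (ENSMUSG00000022952) chr16:92601466-92826149 on the minus strand. The other 4 are Nfe2 (ENSMUSG00000058794), Tal1 (ENSMUSG00000028717), Lmo2 (ENSMUSG00000032698) and Fli1 (ENSMUSG00000016087).

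The WT library held 8869 barcodes with 47991455 UMIs and the cKO library 9260 barcodes with 98323201 UMIs, and 24 barcodes were shared. The study's cell filters and a doublet score left 8148 WT and 8477 cKO cells, with medians of 4146.5 and 10048 UMIs per cell. Because of this gap in depth, shares of cells are given after each cell was thinned to 2000 UMIs, which 7943 WT and 8372 cKO cells allowed. Trmt6 itself was counted at 63.6 CPM (the gene's UMIs scaled to a common library total) in WT against 50.5 CPM in cKO, with a log2 ratio of -0.33 (-0.40 to -0.26). UMIs taken from the 3′ end do not show whether a transcript held the floxed exon. Each UMI stands for 1 molecule whatever the gene's length, so levels can be set side by side between genes.

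Over all kept cells, Runx1, Klf1 and Gata1 were the members lowest in the cKO library relative to WT, and Gfi1b came next. Gata2, Zfpm1, Nfe2 and Lmo2 were close to level. By a fixed limit of 2-fold, 3 of the 10 members were lower in the cKO library, against 5.20% of the 9138 genes that reached 5 CPM in either library, and 0 were higher, against 2.93%. The log2 interval lay below 0 for 6 members, against 45.6% of all genes, and above 0 for 1 member, against 33.1%, so at this depth an interval away from 0 was common.

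Among the GATA factors, Gata1 was counted at 15.2 CPM (14.1 to 16.4) in WT against 6.44 CPM (5.92 to 6.99) in cKO, with a log2 ratio of -1.24 (-1.41 to -1.08). Gata2 was counted at 57.6 CPM (55.4 to 60) and 55.8 CPM (54.2 to 57.4), with a log2 ratio of -0.05 (-0.12 to 0.02) that became 0.05 with TMM scaling. The 2 GATA factors therefore stood apart in these libraries, with Gata2 at several times the level of Gata1 in both. The cofactor Zfpm1 was at 29.0 CPM in WT against 32.6 CPM in cKO (log2 ratio 0.17, 0.07 to 0.27), but its ratio was -0.11 when each cell was scaled before averaging, so its direction depended on the scaling.

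The red cell activator Klf1 was the scarcest member, at 6.33 CPM (5.59 to 7.14) in WT against 2.62 CPM (2.30 to 2.99) in cKO, with a log2 ratio of -1.27 (-1.53 to -1.01). The repressor Gfi1b was at 25.4 CPM (23.9 to 27.0) and 13.1 CPM (12.4 to 13.9), with a log2 ratio of -0.95 (-1.08 to -0.83), just inside the limit of 2-fold. Nfe2 was at 100 and 104 CPM, with a log2 ratio of 0.05 whose interval crossed 0. Scaling each cell before averaging put Gfi1b past the limit, at -1.29, and turned Nfe2 to -0.12.

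Lmo2, the bridging factor of the Tal1 complex, was by far the most abundant member, at 506 CPM in WT against 510 CPM in cKO (log2 ratio 0.01, -0.01 to 0.03, or -0.16 with each cell scaled before averaging). Its bHLH partner Tal1 was at 25.1 and 20.3 CPM (-0.30, -0.41 to -0.19). The ETS factor Fli1 was at 72.0 and 54.4 CPM (-0.41, -0.47 to -0.34). Runx1 had the largest difference of the members, at 61.2 CPM (58.9 to 63.6) in WT against 21.8 CPM (20.8 to 22.8) in cKO, with a log2 ratio of -1.49 (-1.57 to -1.40). The order of levels moved little: Lmo2 and Nfe2 led in both libraries and Gata1 and Klf1 came last, while Runx1 went from rank 4 to rank 6.

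**Figure D1:**
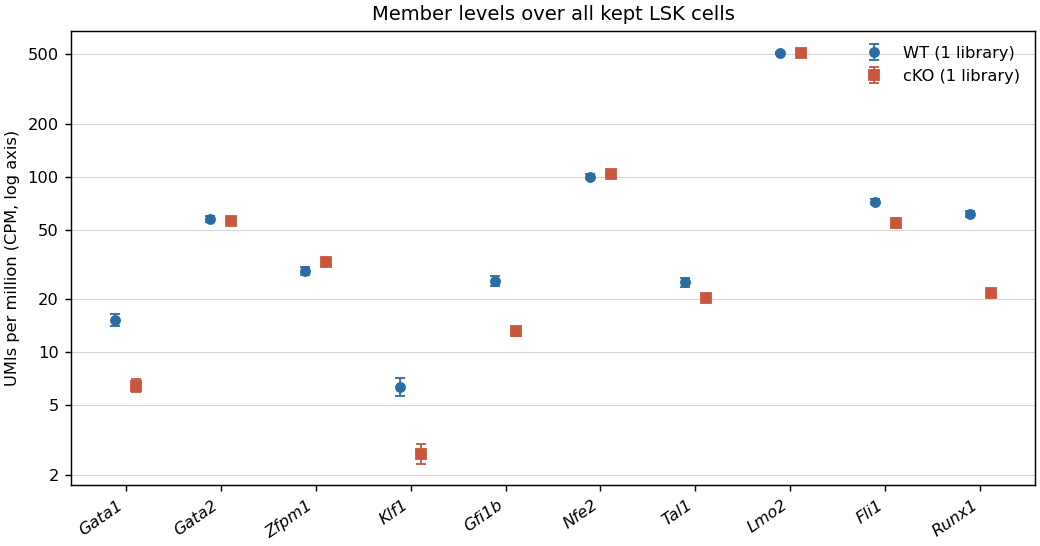
Levels of the 10 members over all kept cells in the WT library (circles) and the cKO library (squares), in CPM on a log axis, with exact Poisson 95% intervals that cover counting error only. The pairs for Gata1, Klf1, Gfi1b and Runx1 are the widest apart, and those for Gata2, Nfe2 and Lmo2 lie nearly level.

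The share of cells with at least 1 UMI of a member, at 2000 UMIs per cell, was lower in cKO for 8 members with intervals apart, against 29.3% of the 9138 genes, and higher for 0, against 21.3%. Gata1 was found in 226 of 7943 WT cells (2.85%, 2.49 to 3.23) and in 83 of 8372 cKO cells (0.991%, 0.790 to 1.23). Klf1 was found in 1.08% and 0.358%, Gfi1b in 5.48% and 1.90%, and Runx1 in 12.1% and 4.74% of cells. Gata2 was found in 12.3% (11.6 to 13.1) of WT and 10.7% (10.0 to 11.3) of cKO cells, and Lmo2 in 64.4% and 62.0%. For Zfpm1 (6.62% and 5.96%) and Nfe2 (19.8% and 19.2%) the intervals overlapped. With all UMIs, and the cKO cells being deeper, the cKO share was higher for 6 members, against 91.3% of all genes, and lower for 3, against 3.36%, counting those with intervals apart. In the same 7943 WT and 8372 cKO cells, the shares with all UMIs were 5.73% in WT and 4.05% in cKO for Gata1 and 2.01% and 1.47% for Klf1. They were 10.6% and 9.17% for Gfi1b, and 25.6% and 19.4% for Runx1. These 4 members had the lower share in cKO by either count. In cells picked as monocyte/DC by their own markers, a type that should lack Gata1, a Gata1 UMI was found at 2000 UMIs in 0 of 80 WT cells (median 4006.5 UMIs before thinning), which limits the share of such cells with a UMI to 3.75%. It was found in 0 of 76 such cKO cells (median 7205.5 UMIs), with a limit of 3.95%. These limits concern detection and not the share of cells that express the gene. The B gate, also meant as a type without the factor, held 72 cKO cells, with 2 Gata1 UMIs (3.87 CPM, 0.469 to 14.0).

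Most cells with a UMI of a scarce member held only 1, with 1.13 Gata1 UMIs per positive WT cell and 1.11 per positive cKO cell at 2000 UMIs. The lower levels of Gata1, Gfi1b and Runx1 were thus seen as fewer positive cells at near the same number of UMIs in each. For Runx1 the number per positive cell was 1.11 in WT and 1.04 in cKO. At counts this low, fewer cells with the transcript and fewer transcripts per cell cannot be told apart.

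Cells were then sorted into lineages by gates, that is, by how many markers of a list were detected in the thinned cell. None of the 10 members is a gate marker. The gates asked for 2 of 8 markers for HSC, 2 of 9 for megakaryocyte, 2 of 8 for erythroid, 2 of 8 for basophil/mast, 2 of 7 for LMPP (lymphoid-primed progenitors) and 4 of 5 for GMP (granulocyte-monocyte progenitors). Cells that met 1 gate were placed in it, and 59.4% of WT and 81.6% of cKO cells met none. Genes outside the marker lists among the 10 leading genes were Hba-a1, a globin gene, and Blvrb in the erythroid gate, the platelet glycoprotein gene Gp5 in the megakaryocyte gate and Esam in the HSC gate. The basophil/mast marker Fcer1a was also among the leading genes of the megakaryocyte gate. Klf1, Gfi1b and Gata1 were themselves among the 10 leading genes of the erythroid, megakaryocyte and basophil/mast gates.

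The gates were filled unequally. The megakaryocyte gate held 228 WT cells (2.87%, 2.51 to 3.26) and 63 cKO cells (0.753%, 0.579 to 0.962), and the erythroid gate held 135 (1.70%) and 83 (0.991%). The HSC gate held 525 (6.61%) and 907 (10.8%), the LMPP gate 899 (11.3%) and 153 (1.83%), and the GMP gate 940 (11.8%) and 48 (0.573%). The basophil/mast gate held 54 and 18 cells, too few in cKO to compare. These shares move with the marker genes themselves, whose median log2 ratio within the gate was -1.16 for megakaryocyte, -0.52 for erythroid and -0.07 for HSC markers. Of the abundant markers, 4 of 6 megakaryocyte, 2 of 8 erythroid and 1 of 7 HSC markers were lower by 2-fold within their gate, and the part of this in the shares was not tested. The most abundant HSC markers in WT were lower in cKO, Hlf at 371 against 194 CPM (-0.94) and Pdzk1ip1 at 288 against 117 CPM (-1.29). Procr, Mllt3, Fgd5 and Slamf1 had log2 ratios above 0, at 0.13, 0.33, 0.65 and 0.56. Summed, the HSC markers stood at 1030 CPM in WT against 715 CPM in cKO HSC-gated cells.

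Gata1 was highest in the erythroid gate in both libraries, at 122 CPM (97.4 to 151) in WT against 82.9 CPM (65.5 to 103) in cKO. The megakaryocyte gate followed at 76.9 CPM (61.4 to 95.2) and 55.8 CPM (39.9 to 76.0), and the WT basophil/mast gate stood at 74.3 CPM (46.6 to 113), level with it within error. The HSC gate was far lower, at 14.6 CPM (9.55 to 21.4) in WT against 2.06 CPM (1.15 to 3.40) in cKO. In WT the LMPP and GMP gates held 2.20 and 1.47 CPM, and in monocyte/DC-gated cells not 1 Gata1 UMI was counted in 80 WT and 76 cKO cells, which allows up to 8.15 and 5.17 CPM. Gata1 was thus concentrated in the erythroid, megakaryocyte and basophil/mast gates.

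Klf1 was still more concentrated, at 169 CPM (140 to 203) in WT against 112 CPM (91.3 to 135) in cKO erythroid-gated cells. The megakaryocyte gate came next at 19.2 and 12.6 CPM, and all other gates of 30 cells or more lay at 10.1 CPM or lower. Gata2 was spread more evenly over the same gates. In WT it stood at 182 CPM (137 to 238) in basophil/mast-, 165 CPM (142 to 191) in megakaryocyte-, 145 CPM (118 to 176) in erythroid- and 129 CPM (113 to 147) in HSC-gated cells, neighbours whose intervals overlapped. It was lower in GMP- (20.6 CPM) and LMPP-gated cells (18.6 CPM, 14.7 to 23.3). Neutrophil-gated WT cells held 2 Gata2 UMIs (4.60 CPM, 0.557 to 16.6), an interval that overlaps that of the LMPP gate.

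Zfpm1 followed Gata1 in part, with its highest level in the megakaryocyte gate (131 CPM in WT, 103 CPM in cKO) and 83.2 and 69.1 CPM in the erythroid gate. Gfi1b was at 99.8 and 100 CPM in the megakaryocyte gate and 91.9 and 62.7 CPM in the erythroid gate. Fli1 was highest in megakaryocyte-gated WT cells, at 195 CPM (170 to 223), more than its next gate, HSC, at 90.6 CPM (77.1 to 106). Nfe2 and Tal1 stood at 123 to 165 CPM and 33.8 to 48.9 CPM in the HSC, megakaryocyte, erythroid and basophil/mast gates of WT cells. Lmo2 was highest in HSC-gated cells of both libraries (742 and 631 CPM). Runx1 had no erythroid or megakaryocyte peak in WT, with 75.4 CPM in LMPP-, 66.9 CPM in HSC-, 64.1 CPM in megakaryocyte- and 48.8 CPM in erythroid-gated cells.

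**Figure D2:**
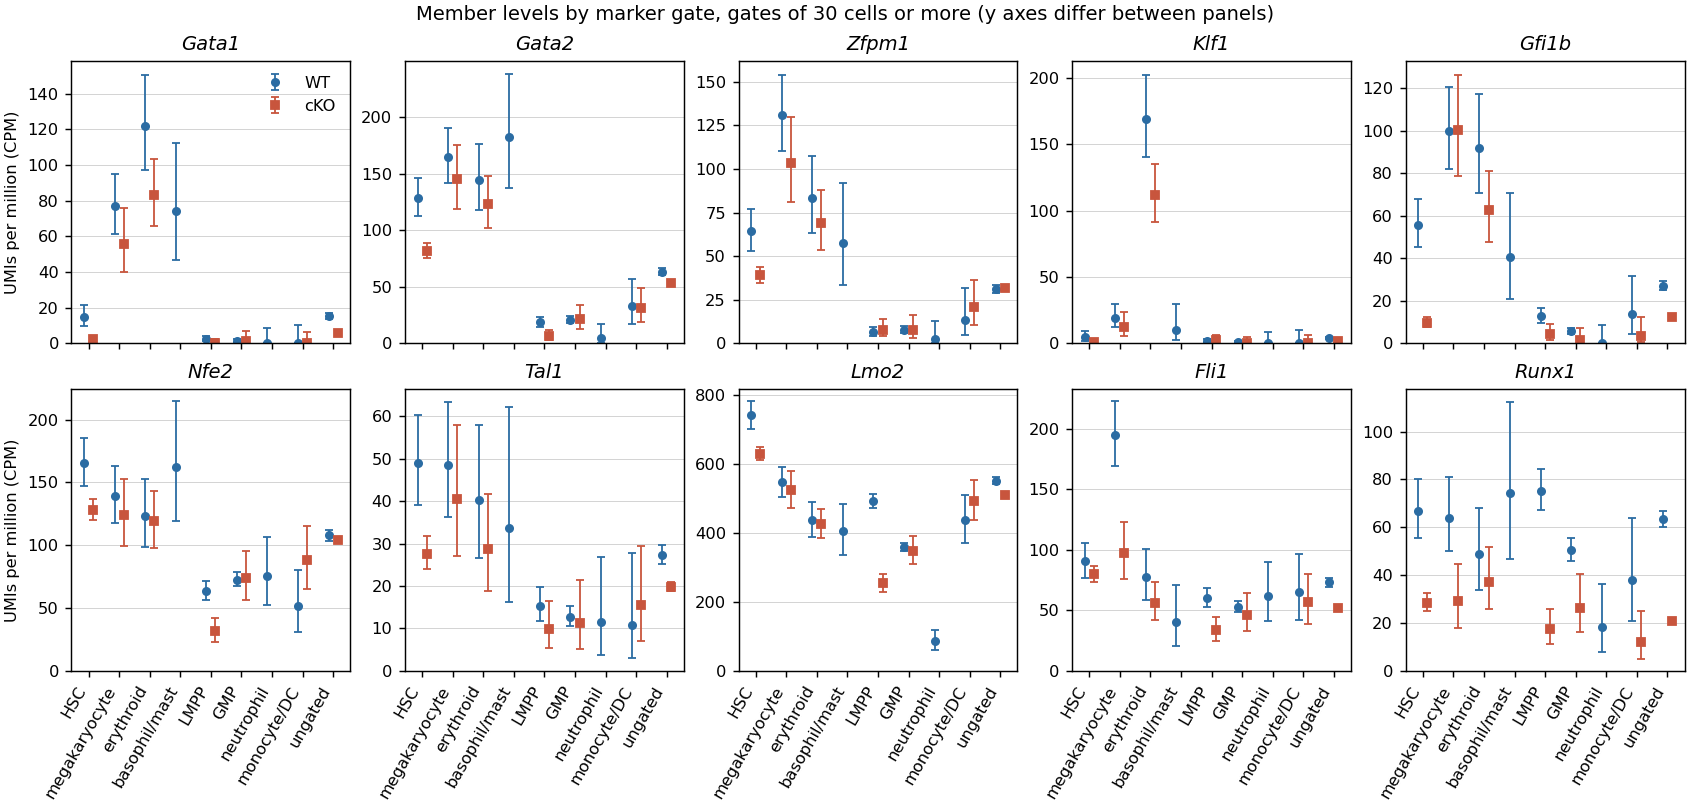
Levels of each member, in CPM, in marker-gated cells of the WT library (circles) and the cKO library (squares), with exact Poisson 95% intervals. Gates of 30 cells or more are drawn, and the y axes start at 0 and differ between panels. In WT, Gata1 and Klf1 peak in the erythroid gate and Fli1 and Zfpm1 in the megakaryocyte gate. In cKO the same gates are highest, but for Gata1, Fli1 and Zfpm1 the interval overlaps that of the next gate. In the HSC gate Gata1 and Gfi1b are far lower in cKO than in WT.

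Within the HSC gate, the cKO library was lower for most members. Gata1 was at 14.6 against 2.06 CPM (26 and 15 UMIs), with a log2 ratio of -2.81 (-3.85 to -1.86). Gfi1b was at 55.7 CPM (45.3 to 67.8) against 9.62 CPM (7.5 to 12.2), with a log2 ratio of -2.53 (-3.00 to -2.08). Runx1 was at 66.9 against 28.6 CPM (-1.23, -1.56 to -0.89). These 3 were the members past 2-fold, of 9 at 5 CPM or more, against 9.06% of all genes, and 8 of the 9 had an interval below 0, against 24.5%. Gata2 was lower as well, at 129 against 81.6 CPM (-0.66, -0.88 to -0.43), as were Zfpm1 (-0.72), Tal1 (-0.83), Nfe2 (-0.37) and Lmo2 (-0.23). Fli1 was at 90.6 and 80.2 CPM, with an interval across 0 (-0.18, -0.43 to 0.09). Klf1 rested on 8 and 7 UMIs. With gates on 1000 UMIs the Gata1 ratio was -1.76, and with 1 more HSC marker required Gfi1b was at -3.75, Tal1 at -0.26 and Zfpm1 at -0.30. Gata1, Gfi1b and Runx1 were thus past 2-fold in the HSC gate by these rules, at sizes that depended on the gate, and the smaller differences of Tal1 and Zfpm1 were not stable.

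The Gata1 level of cKO HSC-gated cells could not be told from that of GMP-gated cKO cells, where 1 UMI gave 1.26 CPM (0.0318 to 7.0), or of B-gated cKO cells. In WT, HSC-gated cells stood above GMP-gated cells beyond counting error (14.6 against 1.47 CPM, 0.780 to 2.51). When HSC-gated cells with any megakaryocyte, erythroid or basophil/mast marker other than Car2 were set aside, 398 WT and 791 cKO cells remained. In these the ratios were -2.26 (-3.44 to -1.09) for Gata1, -2.31 (-2.82 to -1.79) for Gfi1b and -1.18 (-1.55 to -0.78) for Runx1. The differences in the HSC gate were therefore present also among cells in which no marker of these 3 lineages other than Car2 was detected. As shares of cells at 2000 UMIs, Gata1 was found in 1.52% (0.660 to 2.98) of WT HSC-gated cells, an interval that overlaps that of WT GMP-gated cells (0.426%, 0.116 to 1.09). In cKO HSC-gated cells Gata1 was found in 0.441%, on 4 of 907 cells against 8 of 525 in WT, and these intervals also overlapped. The libraries were thus apart in the HSC gate by the level of Gata1 but not by its share of cells at 2000 UMIs. With all UMIs, and the cKO cells being deeper, the Gata1 shares were 3.81% in WT and 1.43% in cKO. Gfi1b was found in 9.71% (7.32 to 12.6) of HSC-gated against 1.38% (0.738 to 2.35) of GMP-gated WT cells, and was found in 1.54% (0.846 to 2.58) of HSC-gated cKO cells. By level, Gfi1b in cKO HSC-gated cells (9.62 CPM, 7.5 to 12.2) stood above WT GMP-gated cells (5.52 CPM, 4.09 to 7.30).

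Within the megakaryocyte and erythroid gates at 2000 UMIs, most members differed less. In the megakaryocyte gate 1 of 10 members, Runx1, was lower by 2-fold, against 11.6% of all genes, and 2 had an interval below 0, against 11.3%. Runx1 was at 64.1 against 29.3 CPM (-1.11, -1.91 to -0.41) and Fli1 at 195 against 97.6 CPM (-0.99, -1.41 to -0.60). Gfi1b was level there (0.01, -0.44 to 0.45), and this interval does not overlap its interval in the HSC gate, but with gates on all UMIs it was -1.01. Gata1 (-0.45, -1.04 to 0.10) and Gata2 (-0.18, -0.55 to 0.17) had intervals across 0. With gates on all UMIs, 4 members were past 2-fold, against 11.5% of all genes, Gata1 (-1.36), Klf1 (-1.58), Fli1 (-1.50) and Gfi1b, while Runx1 was just inside it (-0.997) and Gata2 was at -0.70. At 2000 UMIs the share of members past 2-fold was near the background.

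In the erythroid gate 0 of 10 members were lower by 2-fold, against 11.4% of all genes, and 3 had an interval below 0, against 8.80%. The 3 were Klf1 (169 against 112 CPM, -0.60, -0.99 to -0.21), Gata1 (122 against 82.9 CPM, -0.56, -1.02 to -0.10) and Gfi1b (91.9 against 62.7 CPM, -0.55, -1.09 to -0.02). Gata2, Zfpm1, Nfe2, Tal1, Lmo2, Fli1 and Runx1 had intervals across 0 in the erythroid gate. These level intervals do not allow for several UMIs from 1 cell. At 2000 UMIs, Klf1 was found in 16.3% of WT and 13.3% of cKO erythroid-gated cells, and Gata1 in 16.3% and 10.8%. Gfi1b was found in 13.3% and 8.43%, and for each of these members the intervals of the shares overlapped. Before thinning, with the cKO cells deeper, Klf1 was found in 25.9% and 24.1%, at 3.37 and 5.25 UMIs per positive cell. With gates on all UMIs in place of 2000, Gata1, Klf1 and Runx1 were past 2-fold in the erythroid gate, against 15.6% of all genes, at -1.56, -1.55 and -1.66, and with gates on 1000 UMIs Gata1, Klf1 and Gfi1b were at -0.41, -0.20 and -0.12 and Fli1 at -1.40. The sizes in the erythroid gate, and which members were past 2-fold, thus depended on the depth at which cells were gated.

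In the LMPP gate Gata2, Gfi1b and Runx1 were past 2-fold, 3 of 8 members at 5 CPM or more, against 9.44% of all genes, and 6 had an interval below 0, against 18.7%. Gata2 and Gfi1b rested on 9 and 6 cKO UMIs, and with gates on 1000 UMIs their log2 ratios were -0.45 and -0.10 in place of -1.49 and -1.49, inside 2-fold. Runx1 was at 75.4 CPM (67.2 to 84.3) in WT against 17.6 CPM (11.4 to 26.0) in cKO, with a log2 ratio of -2.07 (-2.75 to -1.51). Lmo2 was at 493 against 255 CPM (-0.95, -1.12 to -0.79, or -0.34 with gates on all UMIs), and Nfe2 at 63.6 against 31.7 CPM (-0.99, or -0.24 with gates on all UMIs). Gata1 had 9 UMIs in WT and 0 in cKO LMPP-gated cells, where 0 allows up to 2.11 CPM. In the GMP gate 1 of 8 members was past 2-fold, against 6.08%, but this was Gfi1b on 49 WT UMIs and 1 cKO UMI, with an interval across 0 (-7.47 to 0.41). There 1 member, Runx1 (50.5 against 26.4 CPM), had an interval below 0, against 11.1%. Runx1 was the member lower in most gates: its interval lay below 0 in the HSC, megakaryocyte, LMPP, GMP, monocyte/DC and ungated cells but not in the erythroid gate (-0.39, -1.11 to 0.33).

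The ungated cells, the bulk of both libraries, had Gata1 at 15.0 against 5.58 CPM (-1.43), Gfi1b at 26.9 against 12.4 CPM (-1.11) and Runx1 at 63.4 against 20.8 CPM (-1.61). These were 3 of 9 members past 2-fold, against 5.68% of all genes, and 7 had an interval below 0, against 45.6%. Zfpm1 (0.04) and Nfe2 (-0.05) had intervals across 0 there. No member was higher in cKO with an interval above 0 in the HSC, megakaryocyte, erythroid, LMPP, GMP or ungated cells, against 13.9% of all genes in the HSC gate, 8.46% in the megakaryocyte gate, 7.76% in the erythroid gate, 15.2% in the LMPP gate, 11.4% in the GMP gate and 29.7% in the ungated cells.

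**Figure D3:**
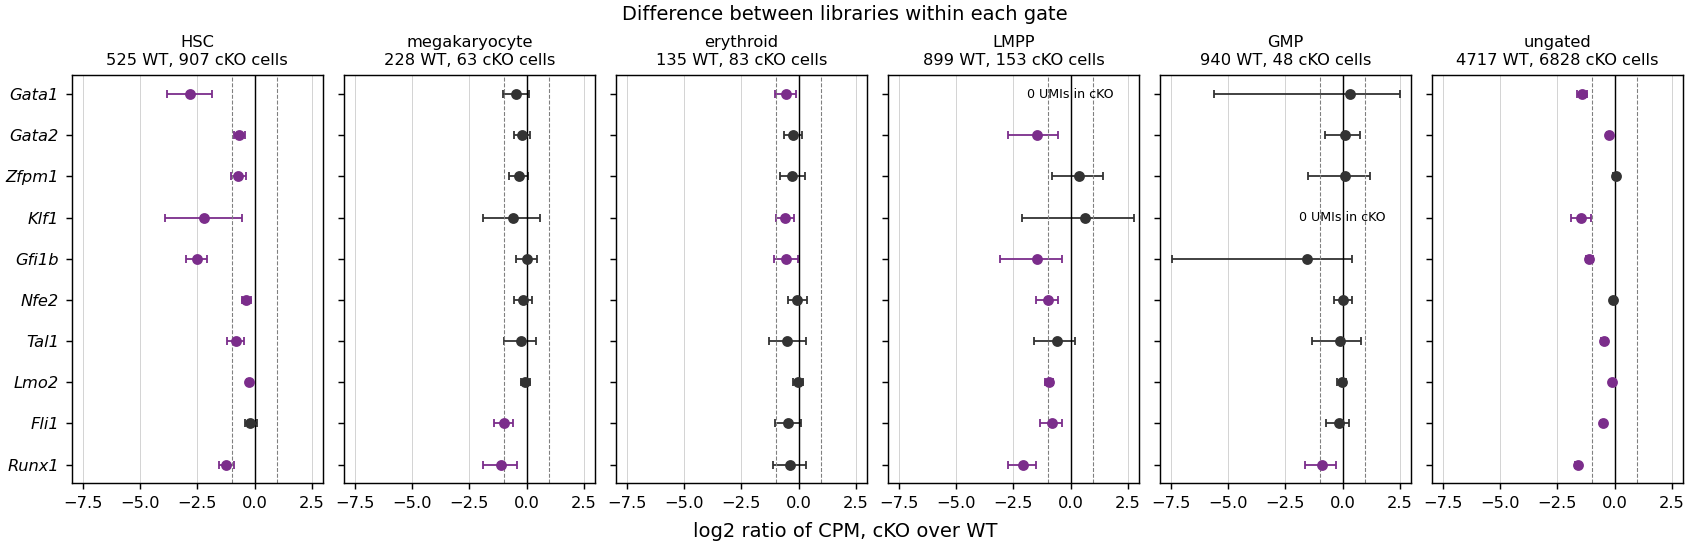
log2 ratio of each member's level, cKO over WT, within 6 classes of gated or ungated cells, with exact 95% intervals drawn in purple where they exclude 0 and black where they do not. Dashed lines mark 2-fold. Gata1 and Gfi1b lie far to the left in the HSC gate and closer to 0 in the megakaryocyte gate, at -0.45 and 0.01, and Runx1 lies to the left of 0 in every panel.

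Because megakaryocyte- and erythroid-gated cells were scarcer in the cKO library, their weight in the levels over all cells was measured. They were 4.57% of gated and ungated WT cells but held 26.8% of the Gata1 UMIs and 52.9% of the Klf1 UMIs. In cKO they were 1.74% of cells and held 21.1% and 49.8%. For Zfpm1 the share was 16.9% in WT and 4.90% in cKO, and for Gata2 11.8% and 4.53%. Most Gata1 UMIs therefore lay outside both gates.

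Without the cells of these gates the log2 ratios were -1.18 for Gata1, -1.21 for Klf1, -0.90 for Gfi1b and -1.51 for Runx1, and that of Zfpm1 was 0.34. With each gate of the cKO library weighted as in WT, the ratio was -1.20 for Gata1, -1.05 for Gfi1b, -1.45 for Runx1 and -0.91 for Klf1. The other 6 members lay between -0.48 and -0.10. The lower Gata1, Gfi1b and Runx1 were thus of like size at the same mix of gates and over all cells, while Klf1 was inside 2-fold. With the WT library weighted as in cKO instead, Klf1 stayed past 2-fold at -1.12, and Gata1, Gfi1b and Runx1 were at -1.37, -1.20 and -1.55. The mix of cell types within the ungated class was not measured.

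The number of markers in a cell gave the same view without a gate's limit. Among WT cells with 0, 1, 2 and 3 or more megakaryocyte markers, Gata1 was found in 1.69%, 7.86%, 13.1% and 16.3%. In cKO it was found in 0.675%, 3.10%, 12.5% and, in only 7 cells, 14.3%. The libraries were apart at 0 and 1 marker and overlapped at 2. Gfi1b showed the same, at 9.60% against 2.16% of cells with 1 megakaryocyte marker and 17.5% against 14.1% with 2. Gata1 was found in 13.4% of WT and 5.08% of cKO cells with 1 erythroid marker other than Car2, 2 intervals that overlapped (8.89 to 19.2 and 1.89 to 10.7), and bins with more erythroid markers held under 20 cells.

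Along the HSC markers the members separated. Gfi1b was found in 4.37%, 7.07%, 9.46% and 14.9% of WT cells with 0, 1, 2 and 3 or more HSC markers, but in 1.85%, 2.04%, 1.87% and 1.48% of cKO cells. The Gfi1b share was higher in WT cells with more HSC markers and flat in cKO cells. Gata2 was found in 10.1% of WT cells with 0 and 20.7% of those with 3 or more, and in 9.35% and 22.2% of cKO cells, so the libraries met at both ends, while they were apart at 1 marker (15.8% and 11.4%) and at 2 (21.6% and 13.9%). Nfe2 went from 17.3% to 34.7% in WT and from 17.9% to 26.6% in cKO. Runx1 stayed between 10.7% and 12.3% in WT and between 4.29% and 6.40% in cKO whatever the number of HSC markers. Gata1 had no such trend in WT, where it was found in 4.36% of cells with 1 HSC marker and 1.74% of cells with 2. For Gata1 the libraries were apart at 0 and 1 HSC marker. They overlapped at 2 (1.74% in WT and 0.535% in cKO) and at 3 or more (2.48% and 0.493%).

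**Figure D4:**
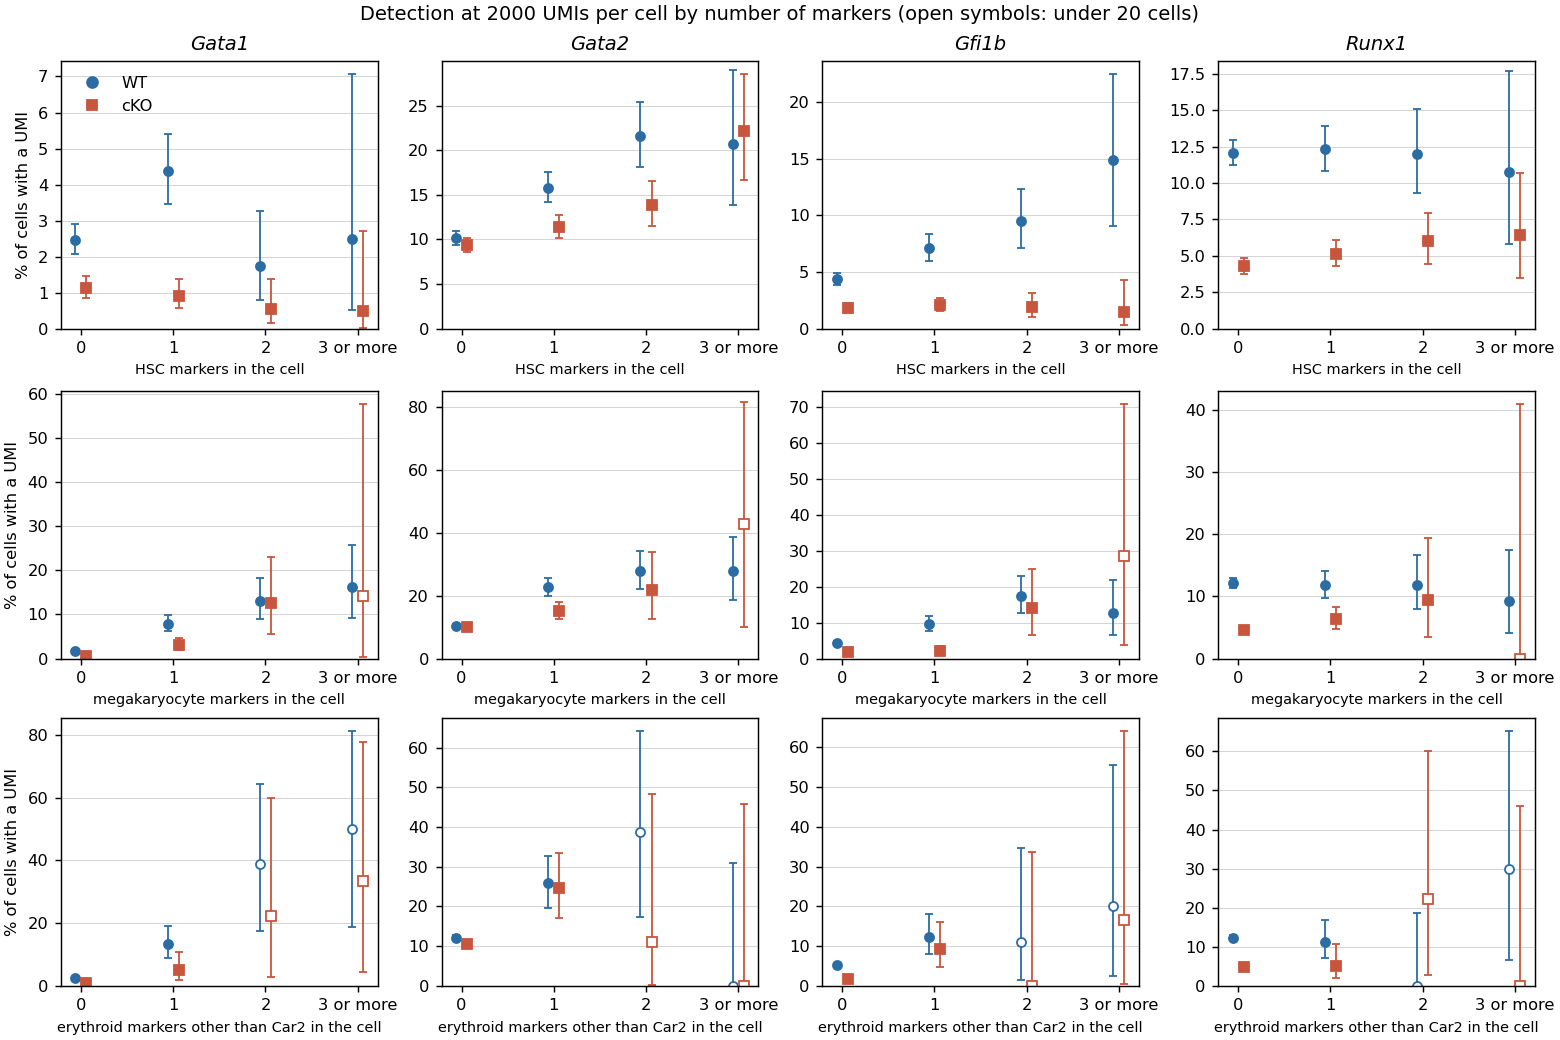
Percentage of cells with a UMI of Gata1, Gata2, Gfi1b or Runx1 at 2000 UMIs per cell, by the number of HSC, megakaryocyte or erythroid markers detected in the same cell, with Clopper-Pearson 95% intervals. Circles are WT, squares are cKO and open symbols are bins of under 20 cells. Gfi1b detection in cells with 3 or more HSC markers is 14.9% in WT and 1.48% in cKO.

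Pairs of members were then looked for in the same thinned cell, and the number of cells with both was divided by the number that the product of the 2 shares gives. Cells of different lineages in 1 library raise this ratio for genes of 1 lineage, so it is given as a description. Gata1 and Klf1 were found together in 20 WT cells, 8.17 times the product (4.99 to 12.6), and in 8 cKO cells, 26.9 times (11.6 to 53.0), though at 1000 UMIs no cKO cell held both. Gata1 and Gata2 met in 62 WT and 22 cKO cells, 2.23 and 2.49 times the product. Gata1 with its cofactor Zfpm1 gave 2.94 and 2.63 times, and Gata1 with Gfi1b 2.83 and, on 8 cKO cells, 5.08 times (2.19 to 10.0). At 1000 UMIs the cKO ratios were 1.60 for Gata1 with Zfpm1 and 2.05 for Gata1 with Gfi1b. Among cells with Gata1, 27.4% of WT and 26.5% of cKO cells also held Gata2. Gata2 and Runx1 met about as often as the product gives, at 0.96 times (0.79 to 1.16) in WT and 1.09 times (0.80 to 1.45) in cKO, and so did Tal1 and Lmo2, at 1.09 and 1.01 times.

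For each member, the genes with the most similar pattern over 19 library-by-gate units (10 WT and 9 cKO) were found among 7381 genes by Pearson's r of log2(CPM + 10). Units of 1 library share its preparation and depth, and 19 of the 30 named genes stayed when 1 CPM was added. Gata1 was closest to Mfsd2b (0.96), Icam4 (0.93), an erythroid adhesion molecule, and the member Gfi1b (0.91). Klf1 was closest to Gm15915 (0.97), Rhag (0.96), a red cell membrane gene and gate marker, and Nxpe2 (0.95). Gata2 was closest to Sdsl (0.97), Tfr2 (0.95), a transferrin receptor, and Apoe (0.94). Gfi1b was closest to F2r (0.94), a thrombin receptor, Icam4 (0.94) and Fermt3 (0.93), and Zfpm1 to Nt5c3 (0.94), F2r (0.93) and Gata2 (0.92).

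Tal1 shared Sdsl with Gata2, and Nfe2 had Tal1 among its closest. Tal1 was closest to Tspan32 (0.96), Vamp5 (0.94) and Sdsl (0.94), and Nfe2 to Vamp8 (0.92), Vamp5 (0.92) and the member Tal1 (0.90). Lmo2 was closest to Rab38 (0.95), Mrpl24 (0.95) and 2210013O21Rik (0.94). Fli1 had the lowest likeness, to the integrin gene Itga6 (0.89), Aldh1a1 (0.86) and Tln1 (0.86), which encodes talin. Runx1 was closest to the histone genes Hist1h2ae (0.92) and Hist1h1d (0.91), with 2900060B14Rik (0.91) between them. Gata1 and Gfi1b shared Icam4, and Gfi1b and Zfpm1 shared F2r.

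Other genes of these pathways were taken from lists and counted by the same limit of 2-fold, over genes at 5 CPM or more, where 5.20% of all genes were lower and 2.93% higher. Of 16 complex partners, 1 was lower and 0 were higher, with a median log2 ratio of 0.00, beside -0.07 over all genes. Mafk, a small Maf partner of Nfe2, was at 16.7 against 7.70 CPM (-1.11), Tcf4 at -0.73, and the Ldb1-binding genes Ssbp4 and Ssbp3 at 0.48 and 0.20.

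Of 20 related family members, 3 were lower and 2 higher (median -0.50). Klf2, a factor of quiescent cells, was at 73.2 against 15.2 CPM (-2.27) and Klf4 at 11.3 against 2.85 CPM (-1.98). Gfi1, the paralogue of Gfi1b, was higher at 16.5 against 39.6 CPM (1.26, 1.15 to 1.39), and Lmo1, the paralogue of Lmo2, at 10.8 against 22.3 CPM (1.04). Of 10 myeloid factors known to oppose GATA factors or to act beside them, 5 were lower and 2 higher (median -1.32). The neutrophil factor Cebpe was at 32.4 against 0.539 CPM (-5.90) and Irf8 at 189 against 12.8 CPM (-3.88), while Id1, an inhibitor of bHLH factors, was at 4.30 against 33.0 CPM (2.94). The low Cebpe and Irf8 stood beside 60 neutrophil- and 940 GMP-gated cells in WT and 0 and 48 in cKO.

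Of 14 megakaryocyte genes, 6 were lower and 0 higher (median -0.60), with Gp1bb at 15.6 against 3.25 CPM (-2.26) and Pf4, platelet factor 4, at 128 against 30.9 CPM (-2.06). Cd9 (0.16) and Mmrn1 (0.12) were at the top. Of 14 erythroid genes, 2 were lower and 3 higher (median -0.06). The water channel gene Aqp1 (-2.34) and the carbonic anhydrase gene Car1 (-1.60) were lower, whereas the adult globin gene Hbb-bt was at 20.6 against 241 CPM (3.55, 3.45 to 3.65) and the erythropoietin receptor gene Epor at 3.06 against 6.38 CPM (1.06). In the erythroid gate itself 6 of 22 erythroid genes were lower, beside 11.4% of all genes, and 0 higher (median -0.46). In the megakaryocyte gate 17 of 22 megakaryocyte genes were lower, beside 11.6% of all genes, and 0 higher (median -1.29). In the HSC gate 10 of 17 megakaryocyte genes were lower, beside 9.06% of all genes, and 0 higher (median -1.20, beside -0.14 over all genes). The megakaryocyte list holds all 9 markers of its gate and the erythroid list all 8 of its gate. HSC-gated cells were limited to fewer than 2 megakaryocyte markers. These counts within gates are therefore not independent of the gate rules.

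Of 7 basophil and mast cell genes, 3 were lower and 1 higher (median -0.55). Hdc, which makes histamine, was at 22.3 against 1.55 CPM (-3.85) and the mast cell protease gene Cpa3 at 62.1 against 8.46 CPM (-2.88). The chymase gene Cma1 had 0 UMIs in WT and 9.64 CPM in cKO, at least 134-fold higher against a floor of 3 UMIs in the WT library. Of its 841 cKO UMIs, 443 lay in the 18 basophil/mast-gated cells. Cma1 is itself a marker of that gate, as are Cpa3 and Fcer1a, so its place there is in part set by the gate. Fcer1a, which encodes a chain of the IgE receptor, was at 5.76 and 6.51 CPM (0.17, -0.04 to 0.40).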

How the data were processed

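LSK cells were profiled in 1 WT and 1 cKO library, named by the genotype label. The authors deposited raw UMI counts for every gene and barcode from 3′ libraries, made by Cell Ranger 6.0.0 on GRCm38 per the submitters' processing notes. The labels name an older kit version than the methods, and no column was left unused. Reads were not analysed here.

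Following the study's methods, barcodes needed over 200 genes and haemoglobin UMIs below 5%. WT barcodes were kept below 4000 genes and 10% mitochondrial UMIs, and cKO barcodes below 4500 genes and 5%. Doublets were scored by simulated neighbours (50 neighbours, 20 components, 1500 variable genes) and removed at 0.8% per 1000 barcodes, which marked 7.09% and 7.41%. Levels are CPM of summed UMIs with exact Poisson intervals. log2 ratios are cKO over WT with 0.5 added counts and exact conditional binomial intervals, and shares have Clopper-Pearson intervals (scipy 1.17.1, Python 3.11.15). With 1 library per group no test was possible, so a gene counted as called past 2-fold at 5 CPM or more in a library. Limits for a count of 0 are 3 counts of the total. Scripts were tested on simulated data.

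The members and lists were chosen with earlier results of these data known. Named genes were the members, Trmt6, the 2 highest and 2 lowest genes of each list and the 3 genes closest to each member, besides leading genes of gates. Ahsp and Cavin2 were not found by symbol. Gates needed 30 cells in both libraries for a ratio. T/NK- and B-gated cells were meant as the type without the factors, but these gates held 1 and 10 WT cells and 13 and 72 cKO cells. Monocyte/DC- and neutrophil-gated cells took their place, a choice made after seeing the data, as were the HSC gate without other markers and the levels without megakaryocyte- and erythroid-gated cells. Other alternatives were scaling by median-of-ratios factors, by TMM (edgeR 4.0.16), to totals that left out mitochondrial and ribosomal protein genes or cell by cell, other filters, thinning to 1000 UMIs or none, and other gate rules.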

Additional observations from a re-analysis of the deposited data

How the results depend on the processing

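With 1 library per group, no replicate could be left out, and the intervals do not cover the spread between mice. No paired analysis was possible because each group had 1 library and no result came from a test. Over all kept cells, 3 members stayed lower by 2-fold under the scalings, filters and minimum levels tried, except with each cell scaled before averaging, where they were 4, and without megakaryocyte- and erythroid-gated cells, where they were 2 because Klf1, at a log2 ratio of -1.21, was under 5 CPM. None of these gave a member higher by 2-fold. TMM moved the median log2 ratio of all genes from -0.07 to 0.03, and Gata2, at -0.05, turned to 0.05. Of 89 values under alternatives that answer a comparison, 67 kept within 1.5 times or the counting interval, 22 moved and 0 turned. Of 305 values for single genes, 232 kept, 72 moved and 1 that was past its limit turned. Values near 0 changed sign besides, among them Zfpm1, Nfe2 and Lmo2 with each cell scaled. Counted on all UMIs, the shares of Gata2, Tal1, Lmo2 and Fli1 went from lower in cKO to higher, with intervals apart both times.

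The shares of cells in a gate, and members' ratios within it, moved with the gate rule. The log2 ratio of the HSC gate's shares, 0.71, was 0.40 with gates on 1000 UMIs, 1.92 on all UMIs and 0.50 with every cell that met a gate. That of the megakaryocyte gate, -1.93, was -2.66 on 1000 UMIs, -0.95 on all UMIs and -3.66 with 1 more marker. That of the erythroid gate, -0.78, was -0.12 on all UMIs, and that of the LMPP gate, -2.63, was -1.36 on all UMIs, -2.93 with 1 more marker and -2.36 with every cell. Members lower by 2-fold in the megakaryocyte gate, 1, were 4 on all UMIs and 2 with every cell (11.5% and 11.6% of all genes). In the erythroid gate, 0, they were 2 on 1000 UMIs and 3 on all UMIs (13.4% and 15.6%). In the LMPP gate, 3, they were 1 on all UMIs, 7 with 1 more marker and 5 with every cell (9.23%, 15.6% and 8.25%). Gata1 in the LMPP gate turned to 0.39 with 1 more marker, on 224 WT and 31 cKO cells. Detection with all UMIs was lower for 3 members and higher for 6, in place of 8 and 0. At a minimum of 1 CPM, 5 of 18 erythroid and 10 of 20 megakaryocyte genes were lower, beside 7.50% of all genes, and 3 of 11 basophil and mast cell genes higher, beside 4.59%. The cause of these moves was not tested.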
